A study of Sus scrofa with 18 samples.

Results

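The interferon regulatory factor (IRF) genes were examined in the histone maps of pig myometrium, the muscular wall of the uterus. The 8 genes IRF1, IRF2, IRF3, IRF4, IRF5, IRF7, IRF8 and IRF9 were taken by name from the RefSeq gene models of Sscrofa11.1, out of 19550 protein-coding genes and 28210 genes in all on the named chromosomes. The models hold a further IRF gene that was not examined, and the family below means these 8 genes. Peaks were collected from 3 kb before to 3 kb after each gene. H3K4me3, a histone methylation that marks promoters, and H3K27ac, a histone acetylation that marks active promoters and enhancers, had been profiled with CUT&Tag, in which an antibody guides a DNA-cutting transposase to the marked nucleosomes of isolated nuclei. The tissues were circular muscle on day 15 of pregnancy (GD15M_CM), longitudinal muscle on day 15 of pregnancy (GD15M_LM) and circular muscle on day 15 of the oestrous cycle (CD15M_CM). All came from the mesometrial side of the uterus of Yorkshire gilts, with 2 gilts per group and no genetic or drug treatment. The layers had been parted by hand, so each sample held whole tissue with its vessels and immune cells. Peaks had been called on the pooled reads of both gilts, so each of the 6 lists (3 tissues and 2 marks) gave 1 value per gene, with no error and no test. A difference below therefore compares pooled lists, and differences between gilts cannot be told apart from differences between groups.

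IRFs are transcription factors that share a DNA-binding domain and recognise interferon response elements. IRF1 and IRF2 bind the same elements, IRF1 mainly as an activator and IRF2 mainly as its antagonist. IRF3 and IRF7 are activated by pathogen sensing and switch on type I interferon genes, IRF5 acts below Toll-like receptors, IRF9 is the DNA-binding subunit of the complex that carries the type I interferon signal to the nucleus, and IRF4 and IRF8 act mainly in lymphocytes and myeloid cells. In the pig, conceptuses release interferons into the uterus around the time of implantation.

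The level of a gene was the percentile of its highest peak by fold enrichment (taken as the mark over IgG) within its own list, and 0 where it had no peak. The lists held between 31910 and 36331 H3K4me3 peaks and between 57010 and 82037 H3K27ac peaks. A difference of at least 10 percentile points was counted as a difference in level. All 8 genes had an H3K4me3 peak in all 3 tissues, against 73.7% of protein-coding genes in GD15M_CM, 75.4% in CD15M_CM and 74.6% in GD15M_LM. All 8 had an H3K27ac peak in GD15M_CM and in CD15M_CM, and 7 had one in GD15M_LM, where IRF8 had none. The share of protein-coding genes with an H3K27ac peak was 73.9% in GD15M_CM, 75.8% in CD15M_CM and 73.1% in GD15M_LM. The median H3K4me3 percentile of the 8 genes was 78.4 in GD15M_CM, 72.3 in CD15M_CM and 68.2 in GD15M_LM, beside 73.6, 75.8 and 72.2 over all protein-coding genes. For H3K27ac it was 78.0, 79.0 and 54.5, beside 77.9, 77.0 and 72.6. The family thus sat near the median of all genes, apart from H3K27ac in GD15M_LM, where its median was lower. The median of all genes counts those without a peak as 0. Over protein-coding genes with a peak, the median H3K4me3 percentile was 81.5 in GD15M_CM, 82.5 in CD15M_CM and 80.2 in GD15M_LM. The H3K27ac medians of genes with a peak were 88.0, 86.2 and 84.4 in the same order. The family median was below that of genes with a peak in every list.

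**Figure D1:**
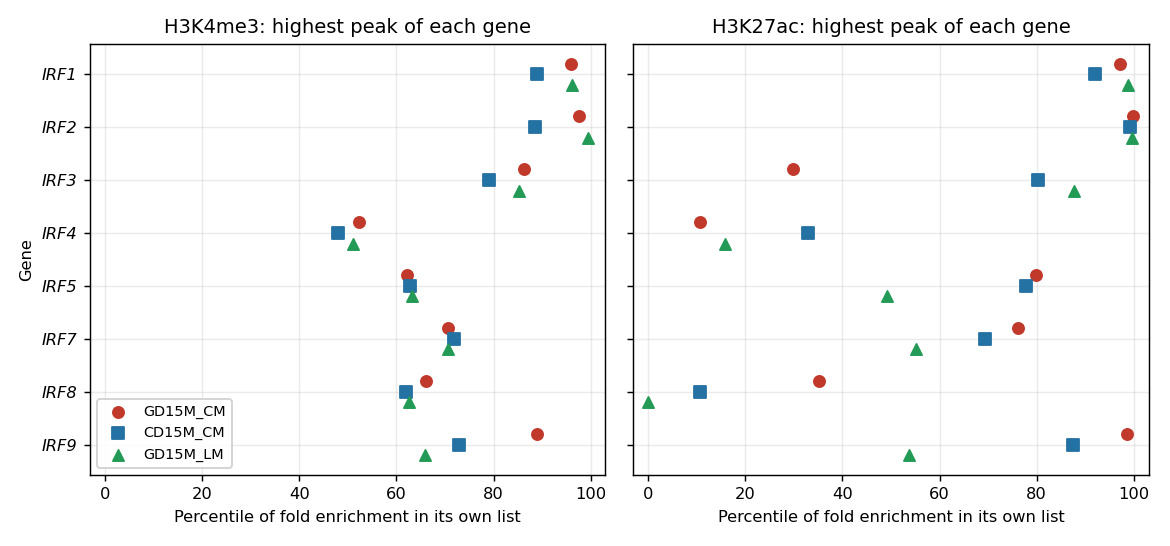
Level of the highest H3K4me3 peak (left) and H3K27ac peak (right) at each IRF gene, as the percentile of fold enrichment within its own list (horizontal axis, 0 where there was no peak), with 1 pooled value per tissue. IRF1 and IRF2 sit above the 88th percentile in every list, IRF4 stays at or below 52.3, and the 3 tissues lie farther apart for H3K27ac than for H3K4me3 at every gene except IRF1 and IRF2.

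IRF1 (gene ID 396611, chromosome 2, 134776122 to 134783646), the interferon-gamma-induced activator, carried a high level of both marks in every tissue. Its H3K4me3 percentile was 95.9 in GD15M_CM, 88.9 in CD15M_CM and 96.1 in GD15M_LM, from fold enrichments of 25.1, 24.0 and 31.5. Its H3K27ac percentile was 97.1, 91.9 and 98.7 in the same order, from fold enrichments of 6.89, 5.65 and 8.91. Both pregnant tissues were thus higher than the cyclic one in both marks, by less than 10 points.

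The length of the marked stretch at IRF1 also differed between the tissues. The main H3K4me3 peak was 6688 bp long in GD15M_CM, 4392 bp in CD15M_CM and 5800 bp in GD15M_LM, at length percentiles of 99.0, 94.4 and 97.5 in its own list. The main H3K27ac peak was 6721 bp long in GD15M_CM, 2252 bp in CD15M_CM and 2366 bp in GD15M_LM, at length percentiles of 99.7, 92.1 and 93.7. In all 6 lists the main peak covered the higher-coordinate end of the gene. For H3K27ac in GD15M_CM it ran as 1 unbroken stretch from 2.46 to 9.18 kb after the lower-coordinate end, where CD15M_CM and GD15M_LM had shorter separate peaks. All H3K27ac peaks together covered 8114 bp of the IRF1 window in GD15M_CM, 4893 bp in CD15M_CM and 4637 bp in GD15M_LM. H3K4me3 peaks covered 7730, 4392 and 6732 bp. The number of H3K4me3 peaks was 5, 1 and 3, but the 4 further GD15M_CM peaks were low, at percentiles of 4.6 to 34.4, and under the strict threshold (fold enrichment of at least 5 and −log10 p of at least 10) 1 peak was left in each tissue. IRF1 lies wholly inside the much longer RefSeq model of SLC22A5, a carnitine transporter, which runs from −115.4 to 71.5 kb relative to the lower-coordinate end of IRF1.

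**Figure D2:**
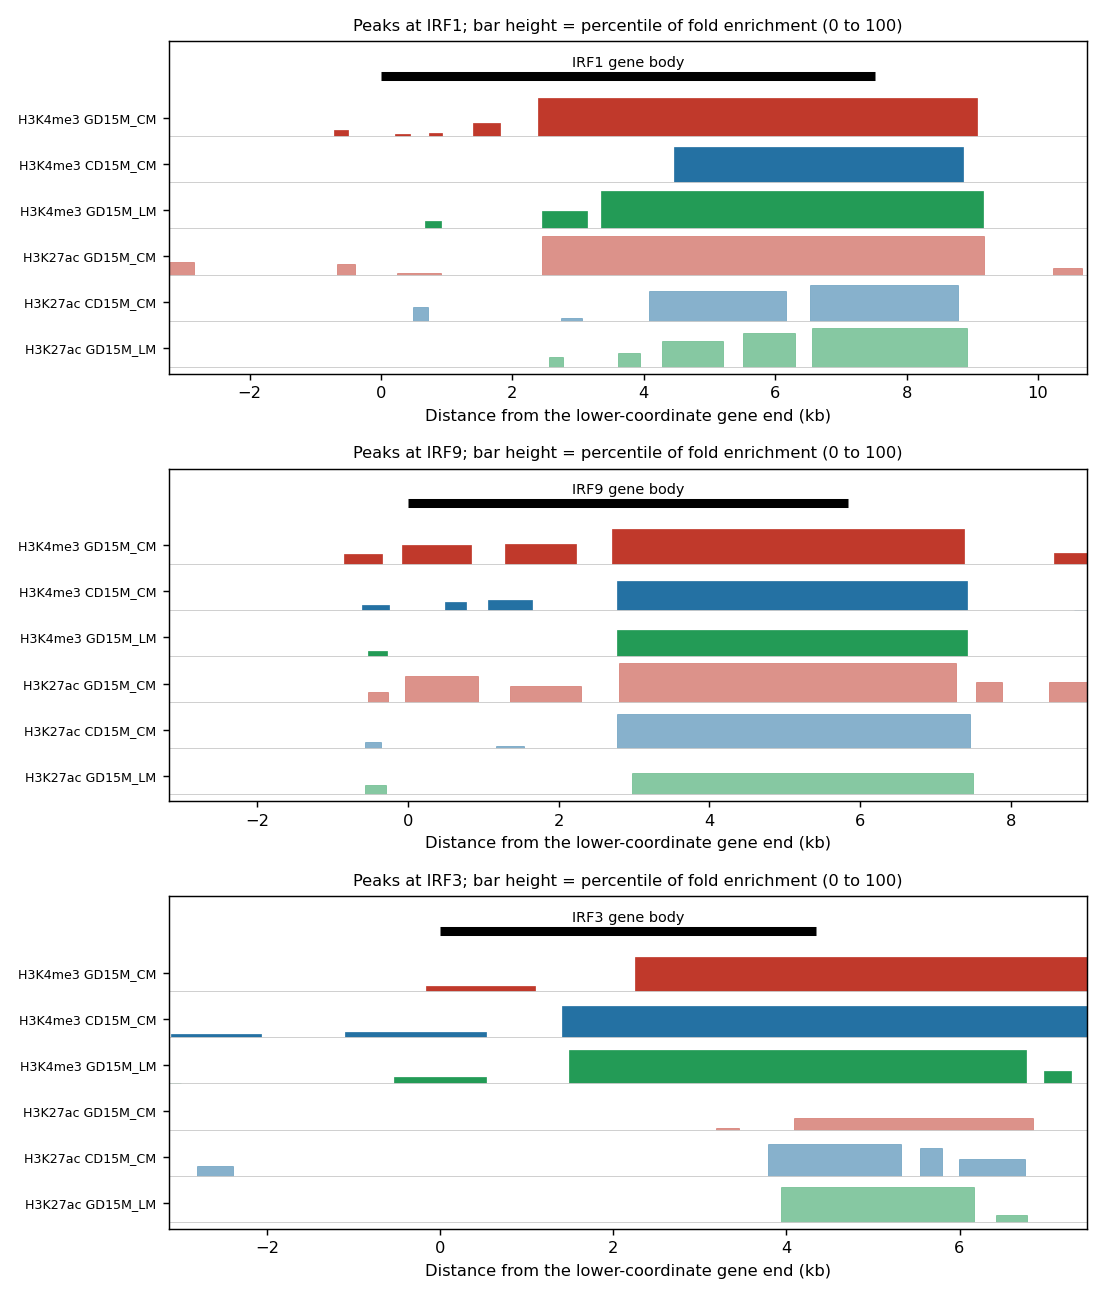
Peaks at IRF1, IRF9 and IRF3 in the 6 pooled lists, against distance in kb from the lower-coordinate end of each gene (black bar, gene body), with bar width giving peak length and bar height the percentile of fold enrichment. At IRF1 the GD15M_CM peaks of both marks are the longest (6688 and 6721 bp), at IRF9 peaks of nearly equal length differ in height (H3K27ac percentile 98.5, 87.4 and 53.8), and at IRF3 the GD15M_CM H3K27ac bar is the lowest of the 3 main bars (29.8).

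IRF2 (gene ID 100621620, chromosome 15, 45546779 to 45693241), the antagonist of IRF1, also ranked high throughout. Its H3K4me3 percentile was 97.6 in GD15M_CM, 88.6 in CD15M_CM and 99.4 in GD15M_LM, and its H3K27ac percentile was 99.8, 99.1 and 99.7. As at IRF1, H3K4me3 was lowest in CD15M_CM, and the H3K27ac level was close to the top of every list. The highest peak of both marks lay inside the gene, about 84 to 90 kb from its lower-coordinate end in GD15M_CM, and covered an end of the protein-coding model LOC106506214. The higher-coordinate end of IRF2 carried a lower H3K4me3 peak, at percentile 71.7 in GD15M_CM, 64.5 in CD15M_CM and 73.5 in GD15M_LM.

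IRF2 had many H3K27ac peaks in GD15M_CM. The number was 40 in GD15M_CM, 14 in CD15M_CM and 8 in GD15M_LM, against 6, 7 and 3 H3K4me3 peaks. IRF2 is the longest member, and per 100 kb of window its 26.2 peaks in GD15M_CM were fewer than those of IRF1 (37.0), IRF7 (42.8) and IRF9 (50.7). Among the 2880 protein-coding genes of 100 kb or longer, 2.29% had at least as many H3K27ac peaks per 100 kb as IRF2 in GD15M_CM, against 14.5% in CD15M_CM, where IRF2 had 9.18, and 14.7% in GD15M_LM, where it had 5.25. The H3K27ac peaks covered 30545 bp in GD15M_CM, 10733 bp in CD15M_CM and 8026 bp in GD15M_LM, or 20%, 7.0% and 5.3% of the window. Of the 40 peaks in GD15M_CM, 29 (72.5%) overlapped no CD15M_CM peak and 32 (80%) overlapped no GD15M_LM peak, against 31.7% and 47.8% of all H3K27ac peaks of GD15M_CM. In the other direction, 13 of the 14 CD15M_CM peaks and all 8 GD15M_LM peaks overlapped a GD15M_CM peak. The 29 peaks had a median percentile of 41.5 and the 11 that overlapped a CD15M_CM peak a median of 84.8, so the additional peaks were mostly lower. The 90th percentile was reached by 7 of the 40 peaks, against 3 in CD15M_CM and 1 in GD15M_LM, and 2 of the 7 overlapped no CD15M_CM peak. The higher of these, at percentile 97.6 and 59.8 to 60.8 kb from the lower-coordinate end, overlapped no peak of either other tissue. Peak numbers were also compared as ratios between tissues, with 1 added to every count. Among 5454 genes with 5 or more H3K27ac peaks in either circular muscle list, 2.42% had a ratio at least as high as IRF2. Of those of 100 kb or longer, 2.89% did. In the comparison of the layers, a ratio at least as high as that of IRF2 was found in 3.85% of 4939 genes. Of those of 100 kb or longer, 6.70% had one. In ratio, the contrast with CD15M_CM was smaller when the peaks were counted otherwise. That with GD15M_LM was smaller too, except under the strict threshold. Joining peaks less than 1 kb apart left 19, 10 and 6 peaks in GD15M_CM, CD15M_CM and GD15M_LM, lists cut to an equal number of top peaks left 26, 12 and 8, and the strict threshold left 7, 4 and 1.

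**Figure D3:**
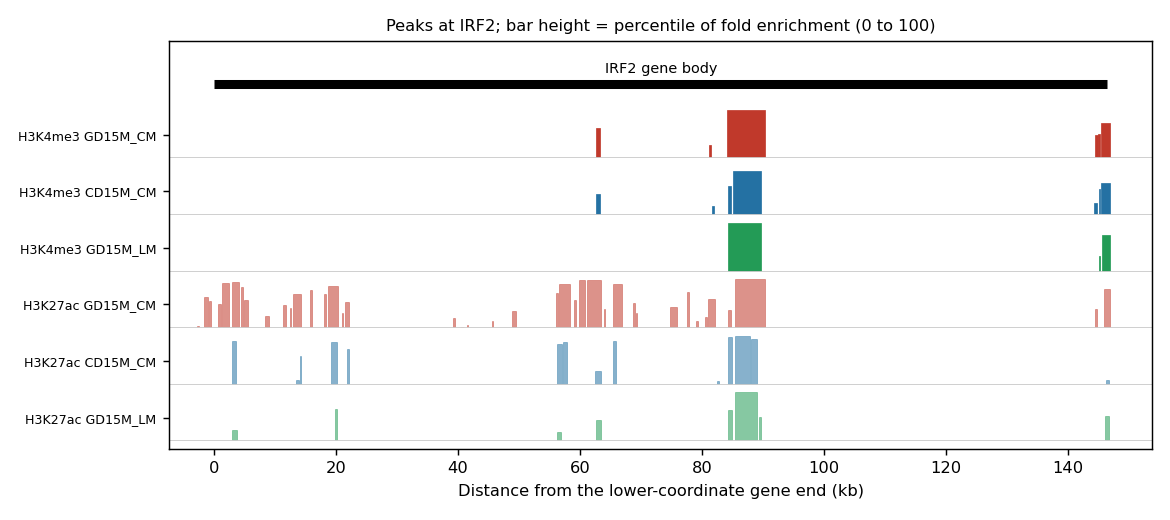
H3K4me3 and H3K27ac peaks along IRF2 against distance in kb from its lower-coordinate end (black bar, gene body), with bar height giving the percentile of fold enrichment. The tallest peak near 84 to 90 kb is present in all 6 lists, and the 40 H3K27ac peaks of GD15M_CM are spread over the gene body where CD15M_CM has 14 and GD15M_LM has 8.

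IRF9 (gene ID 780415, chromosome 7, 75133800 to 75139641), the factor that carries the type I interferon signal to DNA, was the only member counted as higher in GD15M_CM than in both other tissues in both marks. Its H3K4me3 percentile was 88.9 in GD15M_CM, 72.8 in CD15M_CM and 65.8 in GD15M_LM, from fold enrichments of 19.7, 14.3 and 12.4. Its H3K27ac percentile was 98.5, 87.4 and 53.8, from fold enrichments of 7.73, 5.12 and 3.92. GD15M_CM was thus highest and GD15M_LM lowest in both marks. The H3K4me3 difference of 16.2 points from CD15M_CM was reached by 5.0% of protein-coding genes, and that of 23.1 points from GD15M_LM by 4.8%. The H3K27ac difference was 11.1 points from CD15M_CM, reached by 23.1% of genes, and 44.7 points from GD15M_LM, reached by 6.9%. Ranked by −log10 p, the H3K27ac difference from CD15M_CM was 5.61 points, so that this call was lost.

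The main IRF9 peaks were nearly equal in length, at 4675, 4648 and 4645 bp for H3K4me3 and 4477, 4684 and 4525 bp for H3K27ac in GD15M_CM, CD15M_CM and GD15M_LM. All covered the higher-coordinate end of the gene. H3K27ac had 6 peaks over 7329 bp in GD15M_CM, 3 over 5262 bp in CD15M_CM and 2 over 4801 bp in GD15M_LM. H3K4me3 had 5 peaks over 7294 bp, 5 over 5857 bp and 2 over 4899 bp in the same order. GD15M_CM thus had the most bases under peaks in both marks but not more H3K4me3 peaks than CD15M_CM. No other gene model lay within 3 kb of IRF9, which held otherwise only for IRF4 and IRF8.

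IRF3 (gene ID 396656, chromosome 6, 54701733 to 54706079), a constitutively made sensor-activated factor, was opposite in direction in H3K27ac. Its H3K27ac percentile was 29.8 in GD15M_CM, 80.3 in CD15M_CM and 87.6 in GD15M_LM, from fold enrichments of 3.03, 4.59 and 5.98. Its H3K4me3 percentile was 86.2, 79.1 and 85.2. The H3K27ac level was thus lowest in GD15M_CM while the H3K4me3 level was not. A deficit of at least 50.5 points from CD15M_CM was found in 4.3% of protein-coding genes, and one of at least 57.9 points from GD15M_LM in 2.5%. The length of sequence under H3K27ac did not follow the height: it was 3036 bp in GD15M_CM, 2974 bp in CD15M_CM and 2593 bp in GD15M_LM. The GD15M_CM peak was 1 stretch of 2766 bp, and the highest CD15M_CM peak was 1532 bp long. By −log10 p, the GD15M_CM percentile was 73.2, against 89.5 and 86.9. The highest peaks of both marks also covered the near end of BCL2L12, which lies 374 bp beyond IRF3, so the signal of the 2 genes cannot be told apart.

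IRF7 (gene ID 100037289, chromosome 2, 372235 to 375572), the interferon-induced amplifier of type I interferon, had H3K4me3 percentiles of 70.6 in GD15M_CM, 71.8 in CD15M_CM and 70.6 in GD15M_LM. Its H3K27ac percentiles were 76.2, 69.4 and 55.2. H3K4me3 was level over the tissues, and H3K27ac was 21.0 points lower in GD15M_LM than in GD15M_CM. IRF7 is short and its H3K4me3 peaks covered 65.1% of the window in GD15M_CM, 77.2% in CD15M_CM and 69.6% in GD15M_LM. The highest H3K4me3 peak reached the near end of CDHR5, 877 bp away, in all 3 tissues. The highest H3K27ac peak reached it in GD15M_LM only.

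IRF5 (gene ID 100515633, chromosome 18, 19678377 to 19691154), which acts in inflammatory cytokine induction, showed the same order as IRF7 in H3K27ac. Its H3K4me3 percentiles were 62.2 in GD15M_CM, 62.7 in CD15M_CM and 63.1 in GD15M_LM, and its H3K27ac percentiles 79.9, 77.7 and 49.2. Only the H3K27ac level in GD15M_LM stood apart, by 30.6 points from GD15M_CM. The highest peak of IRF5 lay at the higher-coordinate part of the gene in all 6 lists and covered the lower-coordinate end of KCP, a model that overlaps IRF5. IRF5 and IRF7 had the most similar levels over the 6 lists after IRF1 and IRF2, with a Euclidean distance of 18.03 percentile points against 8.58 for IRF1 and IRF2.

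IRF8 (gene ID 396645, chromosome 6, 3041617 to 3060685), a factor of myeloid and B cells, had H3K4me3 percentiles of 66.1 in GD15M_CM, 62.0 in CD15M_CM and 62.5 in GD15M_LM. Its H3K4me3 peak covered the higher-coordinate end and was 4425, 2881 and 4290 bp long. H3K27ac was weak: its percentile was 35.3 in GD15M_CM, from 2 peaks, and 10.8 in CD15M_CM, from 1 peak of 235 bp, with no peak in GD15M_LM. The H3K4me3 peak was therefore present with little or no H3K27ac peak in any tissue.

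IRF4 (gene ID 100144625, chromosome 7, 133358 to 149609), a factor of lymphocytes and plasma cells, had the lowest H3K4me3 level of the family in each tissue. Its H3K4me3 percentiles were 52.3 in GD15M_CM, 47.9 in CD15M_CM and 51.0 in GD15M_LM, and its H3K27ac percentiles 10.8, 33.0 and 15.8. H3K27ac covered only 322, 502 and 267 bp. The 22.2-point excess of H3K27ac in CD15M_CM over GD15M_CM lies between peaks with fold enrichments of 3.12 and 2.57, both below the list medians of 3.53 and 3.49.

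Between pregnant and cyclic circular muscle, the H3K4me3 level was higher in GD15M_CM for 1 of the 8 genes, IRF9, beside 11.9% of protein-coding genes, and higher in CD15M_CM for 0, beside 23.1%. After the difference of each gene was centred on the median of all genes, these shares of genes were 16.0% and 18.4%, and IRF2 joined IRF9. The H3K27ac level was higher in GD15M_CM for 2 (IRF8 and IRF9), beside 24.5%, and higher in CD15M_CM for 2 (IRF3 and IRF4), beside 25.4%. The median difference, GD15M_CM minus CD15M_CM, over the 8 genes was 5.73 points for H3K4me3, beside −2.05 over all genes tested, and 3.66 points for H3K27ac, beside −0.055. For H3K27ac the members called in each direction made up a share close to that of all genes.

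Between the layers of pregnant muscle, the H3K4me3 level was higher in GD15M_CM for 1 gene, again IRF9, beside 20.3% of genes, and higher in GD15M_LM for 0, beside 19.3%. The H3K27ac level was higher in GD15M_CM for 4 (IRF5, IRF7, IRF8 and IRF9), beside 32.0%, and higher in GD15M_LM for 1 (IRF3), beside 21.6%. When each list was cut to an equal number of top peaks, these shares of genes were 25.2% and 31.9%, and the 4 genes stayed called. The median difference, GD15M_CM minus GD15M_LM, was 0.47 points for H3K4me3, beside 0.41 over all genes tested, and 10.6 points for H3K27ac, beside 1.96. Both comparisons share GD15M_CM, so a high or low value there enters both. When the calls were made on the centred ratio of fold enrichments instead of percentiles, with a limit of 1.5, IRF9 for H3K4me3 in both comparisons, IRF9 for H3K27ac between the layers and IRF3 for H3K27ac in both remained called, while IRF4, IRF5 and IRF7, IRF8 between pregnant and cyclic muscle, and IRF9 for H3K27ac between pregnant and cyclic muscle did not. On that scale IRF8 had no ratio in H3K27ac between the layers, having no GD15M_LM peak, and was counted as higher in GD15M_CM than in CD15M_CM in H3K4me3.

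**Figure D4:**
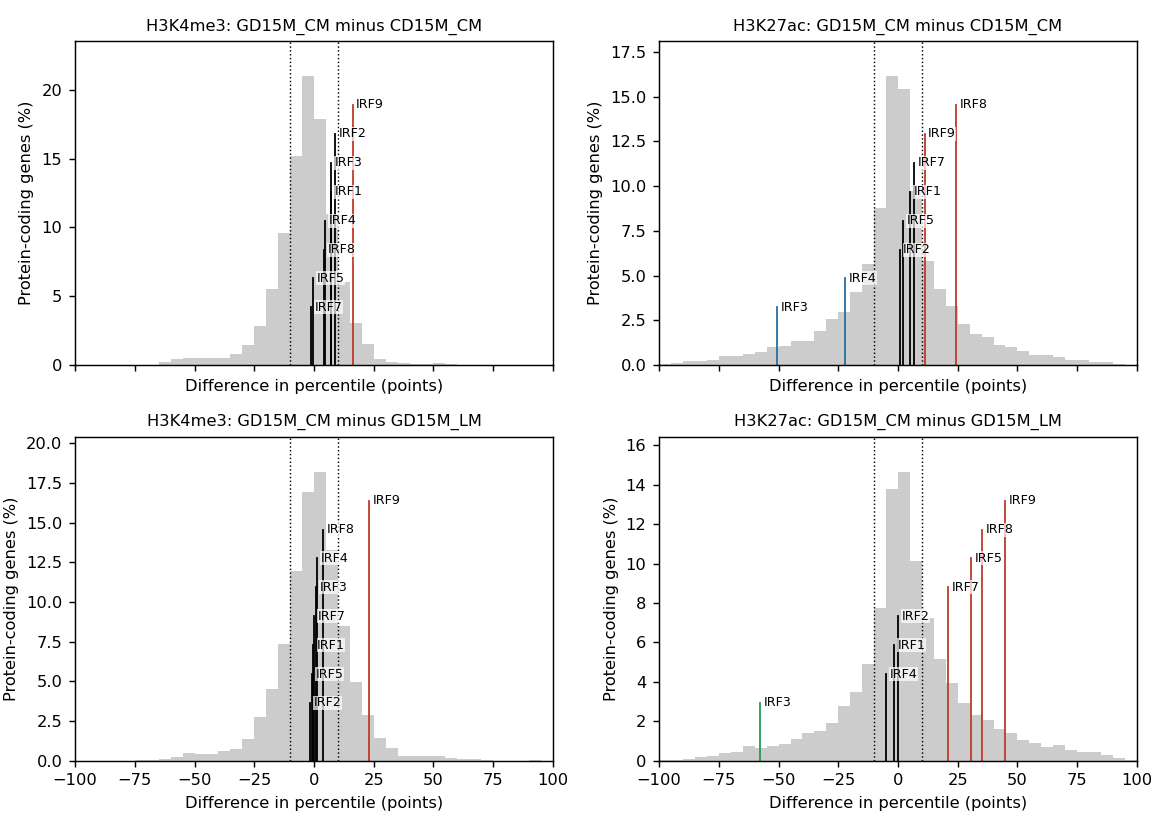
Distribution of the difference in percentile over all protein-coding genes with a peak in either list (grey bars, per cent of genes in bins of 5 points), with each IRF gene drawn as a vertical line (its height only spaces the labels) and dotted lines at 10 points either way. IRF9 lies to the right of the dotted line in all 4 panels (16.2, 11.1, 23.1 and 44.7 points), IRF3 lies far to the left in both H3K27ac panels (−50.5 and −57.9), and the other H3K4me3 lines lie within 10 points of 0.

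The marks coincided to different degrees along the family. The share of H3K4me3-marked bases that also lay under an H3K27ac peak was 92.8% at IRF1 in GD15M_CM, 89.9% in CD15M_CM and 68.9% in GD15M_LM. At IRF9 it was 91.6%, 89.1% and 95.6%, and at IRF2 80.8%, 62.6% and 74.3%. These 3 genes exceeded the median of all protein-coding genes with an H3K4me3 peak, 68.2%, 63.2% and 54.3%, in every tissue, apart from IRF2 in CD15M_CM. IRF7 had 63.5%, 54.9% and 67.0%, IRF5 55.3%, 56.7% and 38.5%, and IRF3 47.8%, 35% and 38.6%. The share was lowest at IRF4, with 10.0%, 18.3% and 11.9%, and at IRF8, with 18%, 6.2% and 0%.

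**Figure D5:**
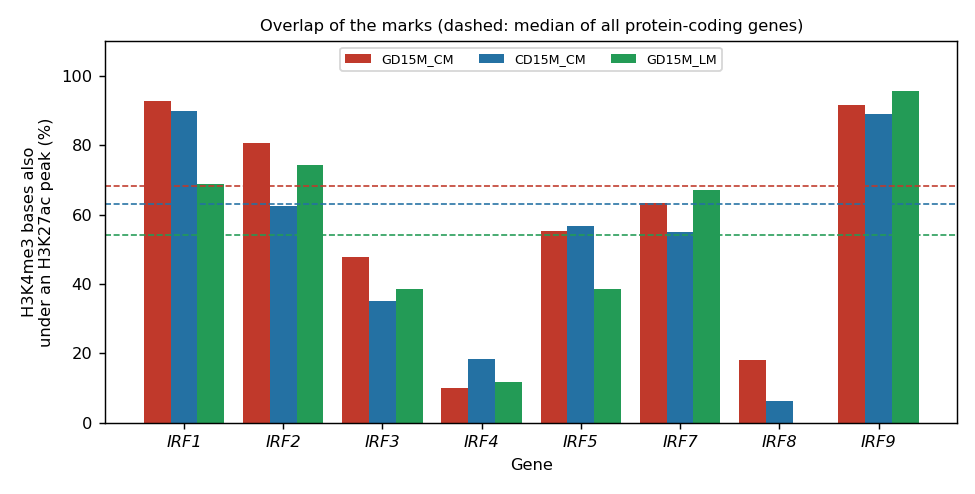
Share of the H3K4me3-marked bases in each IRF window that also lay under an H3K27ac peak (vertical axis, per cent), by tissue, with dashed lines for the median of all protein-coding genes with an H3K4me3 peak in that tissue. IRF1 and IRF9 lie above the lines in all tissues (68.9% to 95.6%), and IRF4 and IRF8 below 20% in all tissues.

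Genes that work with the IRFs were described from 3 lists. Among the signalling genes that activate IRFs, 16 of the 19 listed had a peak in the comparisons. For GD15M_CM against CD15M_CM, 3 were higher in each direction in H3K4me3, beside 11.9% and 23.1% of all genes, and 6 were higher in GD15M_CM and 2 in CD15M_CM in H3K27ac, beside 24.5% and 25.4%. STAT2, a partner of IRF9, had H3K4me3 percentiles of 72.4 in GD15M_CM, 71.9 in CD15M_CM and 65.0 in GD15M_LM and H3K27ac percentiles of 53.5, 67.4 and 58.1, in the order of IRF9 for H3K4me3 but not for H3K27ac. MYD88, the adaptor that links Toll-like receptors to IRF5 and IRF7, had 89.3, 70.1 and 71.4 for H3K4me3 and 93.0, 64.5 and 74.2 for H3K27ac, highest in GD15M_CM in both marks. MAVS, the mitochondrial adaptor above IRF3 and IRF7, had 98.0, 80.3 and 86.9 and then 99.9, 84.1 and 94.3. Other signalling genes were lowest in GD15M_CM in H3K4me3, such as TICAM1 (80.8, 94.5 and 87.6), IFNGR2 (77.1, 87.3 and 92.3) and JAK2 (78.7, 88.1 and 95.9). Against GD15M_LM, 5 signalling genes were higher in GD15M_CM and 3 in GD15M_LM in H3K4me3, beside 20.3% and 19.3% of all genes, and 3 and 1 in H3K27ac, beside 32.0% and 21.6%.

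Of the 12 listed partners and co-regulators, 1 was higher in GD15M_CM and 3 in CD15M_CM in H3K4me3, and 5 and 3 in H3K27ac (of all genes, 11.9% and 23.1%, and 24.5% and 25.4%). Between the layers, 2 were higher in each direction in H3K4me3 and 3 in each in H3K27ac (of all genes, 20.3% and 19.3%, and 32.0% and 21.6%). CIITA, the activator of MHC class II genes, had H3K4me3 percentiles of 81.4 in GD15M_CM, 57.8 in CD15M_CM and 55.5 in GD15M_LM. BATF3, a partner of IRF8 in dendritic cells, had H3K27ac percentiles of 79.0, 30.8 and 5.3, in the same order as IRF8 itself. BATF, a partner of IRF4 and IRF8 in lymphocytes, was lowest in GD15M_CM in H3K27ac, at 33.8, 64.4 and 62.6. EP300, a histone acetyltransferase, was lowest there in both marks, at 81.1, 98.2 and 96.6 for H3K4me3 and 81.3, 96.2 and 94.7 for H3K27ac, and the corepressor IRF2BP1 had H3K4me3 percentiles of 82.1, 98.4 and 95.7. Of the 95 listed genes that could be placed, those with levels most like IRF1 over the 6 lists were NLRC5, the activator of MHC class I genes, with a distance of 9.77 percentile points, the macrophage marker CD68 with 10.8, IRF2BP2, a corepressor that binds IRF2, with 13.6, GBP1, an interferon-induced GTPase, with 14.0 and JAK1, a kinase of the interferon receptors, with 14.5. The study had picked IRF1, CIITA, NLRC5 and GBP1 from RNA of the same kinds of tissue, so their levels were not those of unselected genes.

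Of the 26 listed target genes, which carry interferon response elements or are induced by interferon, 23 had a peak in the comparisons; CXCL9, IFNB1 and IDO1 had none. In H3K4me3, 7 were higher in GD15M_CM than in CD15M_CM and 0 the other way (11.9% and 23.1% of all genes), with a median difference of 4.41 points, beside −2.05 over all genes. In H3K27ac, 10 were higher and 2 lower (24.5% and 25.4% of all genes), with a median of 9.37 points, beside −0.055. Against GD15M_LM, 10 were higher and 3 lower in H3K4me3 (20.3% and 19.3% of all genes), with a median of 6.11, beside 0.41. In H3K27ac, 12 were higher and 3 lower (32.0% and 21.6%), with a median of 10.5, beside 1.96. GBP2, an interferon-induced GTPase, had H3K4me3 percentiles of 90.7 in GD15M_CM, 60.3 in CD15M_CM and 76.4 in GD15M_LM. CXCL10, a chemokine that draws T cells, had 62.7, 10.0 and 60.9. IFIT3, an antiviral effector, had H3K27ac percentiles of 99.9, 96.4 and 10.3, and ISG15, the ubiquitin-like modifier, 75.9, 16.3 and 68.4. IL15 went the other way, with H3K27ac percentiles of 53.6 in GD15M_CM, 91.1 in CD15M_CM and 91.0 in GD15M_LM. Several of the listed genes lie side by side and share a peak (TAP1 with PSMB8, for example), and some, such as GBP1, PSMB8, TAP1 and B2M, had been picked by the study from RNA of the same kinds of tissue. The counts are therefore not independent evidence of a direction.

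Markers of the cell types in the samples differed between the groups in some sets, not always in the same direction in both marks. Smooth muscle markers had a peak of both marks in all 3 tissues for 7 of 7 genes, and their summed percentile was 539.7 in GD15M_CM, 610.5 in CD15M_CM and 619.7 in GD15M_LM in H3K4me3, and 588.0, 658.2 and 608.6 in H3K27ac. Of the 6 T cell markers, 4 were higher in GD15M_CM than in CD15M_CM in H3K4me3, beside 11.9% of all genes. Their summed H3K4me3 percentiles were 411.3, 334.3 and 353.1. In H3K27ac the sums were 232.9, 80.3 and 91.7, with CD3E and CD3D at 0 in all 3 tissues. CD3D and CD3G had the same H3K4me3 percentiles (68.0, 52.6 and 61.7). The study had picked CD3E, CD3D, CD8A and LCK from RNA of the same kinds of tissue. The T cell count is therefore not independent evidence of a direction. Of the epithelial markers, 5 of 5 were higher in GD15M_CM than in GD15M_LM in both marks. The shares of all genes were 20.3% in H3K4me3 and 32.0% in H3K27ac. The epithelial markers summed to 393.4, 405.1 and 291.1 in H3K4me3 and to 377.5, 290.5 and 104.9 in H3K27ac, with KRT18 at 0 in H3K27ac in GD15M_LM. Of the epithelial sums, only that of H3K27ac was in the order of IRF9. In this mark KRT8 (76.1 in GD15M_CM and 84.9 in CD15M_CM), ESRP1 (66.0 and 84.3) and CDH1 (4.8 in CD15M_CM and 7.7 in GD15M_LM) were not. The H3K27ac sums of the leukocyte and myeloid markers, given next, were in the order of IRF9 too, and their H3K4me3 sums were not. Single markers departed from that order in H3K27ac. In GD15M_CM, CD15M_CM and GD15M_LM, CORO1A had 74.9, 96.8 and 49.6, and CSF1R had 62.4, 78.5 and 84.6. SPI1 had 91.4, 95.8 and 89.8, and CD68 had 96.7, 94.1 and 94.5. The sums of the 4 leukocyte markers were 274.6, 262.0 and 275.9 in H3K4me3 and 234.2, 163.6 and 73.3 in H3K27ac, with PTPRC at 0 in H3K27ac in all 3 tissues. Those of the 7 myeloid markers were 404.9, 484.1 and 421.5 in H3K4me3 and 482.5, 454.5 and 330.0 in H3K27ac, with CD163 at 0 in H3K27ac in all 3. The sums of the 7 B and plasma cell markers were 191.3, 248.1 and 275.0 in H3K4me3 and 146.2, 240.5 and 211.7 in H3K27ac, the latter highest in CD15M_CM as for IRF4, with MS4A1 and JCHAIN at 0 in all 6 lists. The sums of the 5 endothelial markers were 249.7, 267.3 and 256.8 in H3K4me3 and 152.1, 124.6 and 131.7 in H3K27ac, with EMCN at 0 in all 6 lists. More cells of a type and more of the mark per cell cannot be told apart in these samples, and the part of cell makeup in the IRF differences was not tested.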

How the data were processed

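Nuclei from 12 mark samples and 6 IgG controls (18 libraries, 2 gilts per group) had been sequenced as paired-end CUT&Tag libraries. The authors mapped reads to Sus scrofa 11.1 with BWA 0.7.17-r1188, used SAMtools 1.9 and Picard 2.8.3, and removed reads with a mapping quality under 25. They pooled both gilts and called peaks with MACS2 2.2.6. They name IgG as the control for normalising the signal, and do not state the control used in peak calling. The deposited fold enrichment was taken as a ratio of mark over IgG. The deposited −log10 p value, whose header was unreadable, was identified by the MACS2 column order. The −log10 q column was not used. Depth per library is not in the lists, so no interval was computed.

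Peaks were joined to RefSeq gene models of Sscrofa11.1 (symbol, chromosome, start, end, no strand) with Python 3.11.15, pandas 2.3.3 and NumPy 2.4.6; Matplotlib 3.10.9 drew the figures. A peak belonged to a gene if it overlapped the gene or 3 kb on either side. Because the models carried no strand, gene ends are given as lower- and higher-coordinate ends and no start site was assigned. Percentiles were taken within each list. The differences were read against all protein-coding genes with a peak in either list. The code was checked on simulated peaks. The 8 genes, the gene lists and the 10-point limit were chosen with earlier results of these data known. Of 98 listed genes, 95 were placed; TRAF3, STING1 and ZAP70 were not. Values of 1 signalling gene are not reported here. The named genes were the 8 members, the 5 list genes nearest IRF1 and list genes with large differences, the latter chosen after their values were seen. Alternatives covered the ranking measure, window, threshold, list size, scale, call size and joining of peaks. A promoter sequence check was not run.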

Additional observations from a re-analysis of the deposited data

How the results depend on the processing

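Of the 32 differences of the 8 genes (2 marks, 2 comparisons), 11 reached 10 points, and all 11 kept their sign under every alternative that gave a value. With the limit at its main value, 4 kept their call in all 8 alternatives: IRF9 in H3K4me3 in both comparisons, and IRF9 and IRF3 in H3K27ac between the layers. IRF3 in H3K27ac against CD15M_CM kept its call in the 7 that gave a value, with no strict peak in either list, and IRF8 in H3K27ac between the layers in 6, with no value in strict lists or on the fold ratio. The number of genes higher in GD15M_CM than in CD15M_CM in H3K4me3, 1 as reported (11.9% of all genes), was 2 by −log10 p (5.53%), 5 in strict lists (25.3%; fold enrichment of at least 5 and −log10 p of at least 10), 3 with peaks joined over 1 kb (16.8%), 2 on the centred fold ratio (12.6%), 2 after centring on the median of all genes (16.0%), 4 at a limit of 5 points (22.9%) and 0 at 20 points (2.81%). In H3K27ac, reported as 2, it was 1 by −log10 p (17.8%), 0 on the fold ratio (9.23%), 4 at 5 points (34.3%) and 1 at 20 points (14.4%). The number higher in CD15M_CM in H3K27ac, reported as 2 of 8, was 0 of 3 tested in strict lists (39.8%) and 1 on the fold ratio (8.07%). It was 1 of 4 without the 4 genes whose highest peak covered the end of another gene (IRF2, IRF3, IRF5 and IRF7). The number higher in GD15M_CM than in GD15M_LM in H3K27ac was reported as 4 of 8. It was 1 of 4 tested in strict lists (34.9%), 1 of 7 on the fold ratio (11.4%) and 2 of 4 without those genes. The number higher in GD15M_LM was reported as 1 of 8. It was 2 of 4 tested in strict lists (47.0%), 2 with equal list sizes (31.9%) and 0 of 4 without those genes. No share of all genes was computed without those genes. Under the strict threshold 3 of the 8 genes had an H3K27ac peak in each tissue, and the median share of H3K4me3 bases under H3K27ac was 0 in all 3. The strict lists hold fewer peaks; the cause of the other changes was not tested. Centring, the window around either gene end, the lists without the 4 genes and the recounts of IRF2 peaks were chosen after seeing the data. In a window of 3 kb around either gene end, which leaves out the middle of the gene, IRF2 in H3K27ac was 43.6 points higher in GD15M_CM than in GD15M_LM. No paired analysis was possible because both gilts of a group had been pooled before peak calling, and for the same reason no replicate could be left out. The window around the start site alone was not run, since the gene models carried no strand.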
